A study of Mus musculus with 12 samples.

Results

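Hepatic stellate cell and collagen genes were followed in the livers of mice that lack Phgdh, the entry enzyme of serine synthesis from glucose, in hepatocytes. The group consisted of 10 genes taken by symbol from the 32524 genes on the array, of which 9 were among the 16916 genes bright enough to be tested. Floxed mice carried the Phgdh flox/flox alleles without Cre, and their LKO littermates were Alb+/Cre;Phgdh flox/flox, so that both groups shared the floxed alleles and differed by a Cre transgene. That transgene is driven by the albumin promoter, which is active in hepatocytes, so that stellate cells and the other non-parenchymal cells of the LKO liver are not its target. All mice were male C57BL/6 animals of 30 weeks on a chow with 20% casein, and total RNA of the whole liver from 6 Floxed and 6 LKO mice was labeled with cyanine 3 and hybridized to 12 single-color Agilent arrays, 1 mouse per array.

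Stellate cells lie between the hepatocytes and the sinusoidal endothelium, where they store vitamin A as retinyl esters. In an injured liver they turn into myofibroblasts, which contract and lay down fibrillar collagen under the influence of TGF-beta and PDGF. The members of the group follow that sequence. Lrat esterifies retinol for storage, and Des encodes desmin, an intermediate filament protein of the resting cell. Tgfb1 encodes the fibrogenic cytokine and Pdgfrb the receptor through which PDGF drives stellate cell growth. Acta2 encodes alpha smooth muscle actin, the usual marker of the myofibroblast. Col1a1 and Col1a2 encode the chains of collagen I, Col3a1 that of collagen III and Col4a1 a chain of the basement membrane collagen IV. Timp1 encodes an inhibitor of the metalloproteinases that degrade matrix.

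Values are log2 intensities after quantile normalization over the 12 arrays, and a difference is LKO minus Floxed. A gene was tested if its probe was well above background on all 12 arrays, and it was called at an unadjusted p below 0.05 in limma. Slide 1 held Floxed 1 to 4, slide 2 held Floxed 5 and 6 with LKO 1 and 2, and slide 3 held LKO 3 to 6, so that genotype can be compared within a slide only on slide 2. Each slide was scanned once, which makes slide and scan a single batch. An array had 21614 to 24252 of its 39429 probes well above background, and precision is limited throughout by the 12 arrays. Phgdh itself (NM_016966) was read by 1 of its 2 probes on the array, and 8.34% of the tested genes had a lower mean. It ranged from 4.81 to 5.50 in Floxed mice (median 5.17) and from 4.23 to 5.30 in mice labeled LKO (median 4.57). Its difference was -0.48 (SE 0.18), and it was called, with an unadjusted limma p of 0.0179. After Benjamini-Hochberg adjustment the limma p was 0.451. The arrays labeled LKO 1 and LKO 2, with Phgdh at 5.07 and 5.30, lay inside the Floxed range, and the difference within slide 2 was -0.055. Where this probe lies on the transcript and whether it covers the deleted exons was not analysed here.

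RNA of stellate cells was readily seen in these livers. Their markers Lrat, Des, Pdgfrb, Reln, Rgs5, Colec11, Hand2 and Lhx2 were well above background on all 12 arrays, while Gfap, another gene of the stellate cell list, was so on none. All 6 hepatocyte markers, among them Alb and Apoa1, were well above background on all 12 arrays. In RNA of whole liver, fewer cells of a type and less RNA per cell cannot be told apart.

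The sequences before the start of 3 members are shown because their genes carry the patterns described below, the fibrillar collagens Col1a2 and Col3a1, which varied together from mouse to mouse, and Acta2, which followed them less closely. RefSeq promoters of GRCm38.p6 were at hand for 8 of the 10 members, with none for Col1a1 and Pdgfrb. Each line gives the 250 bases before the annotated start, 5′ to 3′ on the strand of the gene. Capitals mark matches on either strand to a set of short motifs. The CCAAT box was searched by the letters of its name. The TATA box was searched as TATAAA, with a TATA-like element searched as TATATAA. The GC box, to which Sp1 and its relatives bind, was searched as GGGCGG. The MCAT element of muscle genes was searched as CATTCC. The Smad-type element was searched as CAGACA, since Smad proteins, which carry the TGF-beta signal, bind such letters. No matches to different motifs overlapped in the sequences shown.
Col1a2, chr6:4505368-4505617, plus strand: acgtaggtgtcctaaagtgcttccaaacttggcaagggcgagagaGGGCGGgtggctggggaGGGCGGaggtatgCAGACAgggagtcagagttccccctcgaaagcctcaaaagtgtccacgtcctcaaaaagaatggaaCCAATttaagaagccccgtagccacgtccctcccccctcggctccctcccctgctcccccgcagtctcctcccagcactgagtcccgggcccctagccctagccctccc
Col3a1, chr1:45311288-45311537, plus strand: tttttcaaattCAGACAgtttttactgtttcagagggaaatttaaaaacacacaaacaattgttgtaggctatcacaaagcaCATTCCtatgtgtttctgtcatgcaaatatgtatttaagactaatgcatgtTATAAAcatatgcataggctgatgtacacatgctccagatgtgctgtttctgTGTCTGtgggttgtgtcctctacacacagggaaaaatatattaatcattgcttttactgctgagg
Acta2, chr19:34255374-34255623, minus strand: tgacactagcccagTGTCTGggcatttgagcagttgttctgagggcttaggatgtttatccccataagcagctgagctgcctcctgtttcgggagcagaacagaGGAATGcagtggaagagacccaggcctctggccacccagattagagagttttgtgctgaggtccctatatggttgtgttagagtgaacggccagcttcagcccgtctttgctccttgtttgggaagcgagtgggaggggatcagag

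These sequences have little in common in their base composition. GC content was 62.0% for Col1a2, 35.2% for Col3a1 and 53.6% for Acta2, against a median of 52.4% over the 32851 promoters of the table. The Col1a2 sequence held a CCAAT box from -109 to -105 and GC boxes that began at -205 and -188, counted from the annotated start. The Col3a1 sequence held a TATA box from -117 to -112. Acta2 and Col3a1 had a MCAT match each, as did Timp1 and Lrat, which are not shown. A match to the Smad-type letters was found in all 3 sequences shown. None was found for the members not shown, Col4a1, Timp1, Des, Lrat and Tgfb1. Of all promoters of the table, 33.8% held the CCAAT box, 12.4% the TATA box, 3.04% the TATA-like element, 32.7% the GC box, 12.6% the MCAT element and 17.1% the Smad-type element on either strand. A match describes the letters of the window and is not a binding site.

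None of the 9 tested members was called between LKO and Floxed mice, where 8.35% of all tested genes were called, 4.92% as higher and 3.43% as lower in LKO mice. These were 832 and 581 genes, a split that scaling by the 75th percentile turned into 1127 and 316. For all 10 members the values of the genotypes overlapped, as they did for nearly every gene, since 0.296% of the tested genes had no overlap. Of the tested members 6 had a higher and 3 a lower mean in LKO mice, with a median difference of 0.054 against -0.0035 over all tested genes, of which 48.8% were higher. Unadjusted p-values of the tested members in limma were between 0.296 and 0.759, and with Benjamini-Hochberg adjustment over all tested genes they were between 0.910 and 0.978. No gene of the array passed 0.05 after that adjustment, the smallest adjusted p being 0.132. Exact permutation tests, run on both sides for 6 against 6 mice, over all 924 arrangements, gave p-values of 0.236 to 0.768 for the 10 members. The smallest p that this test can give is 0.00216. A p above the threshold does not show that the genotypes were alike. The intervals below come from the fit without slide and make no allowance for differences between slides. With slide as a fixed block the difference was -0.18 for Lrat and 0.19 for Tgfb1, each of the opposite sign to the fit without slide.

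**Figure D1:**
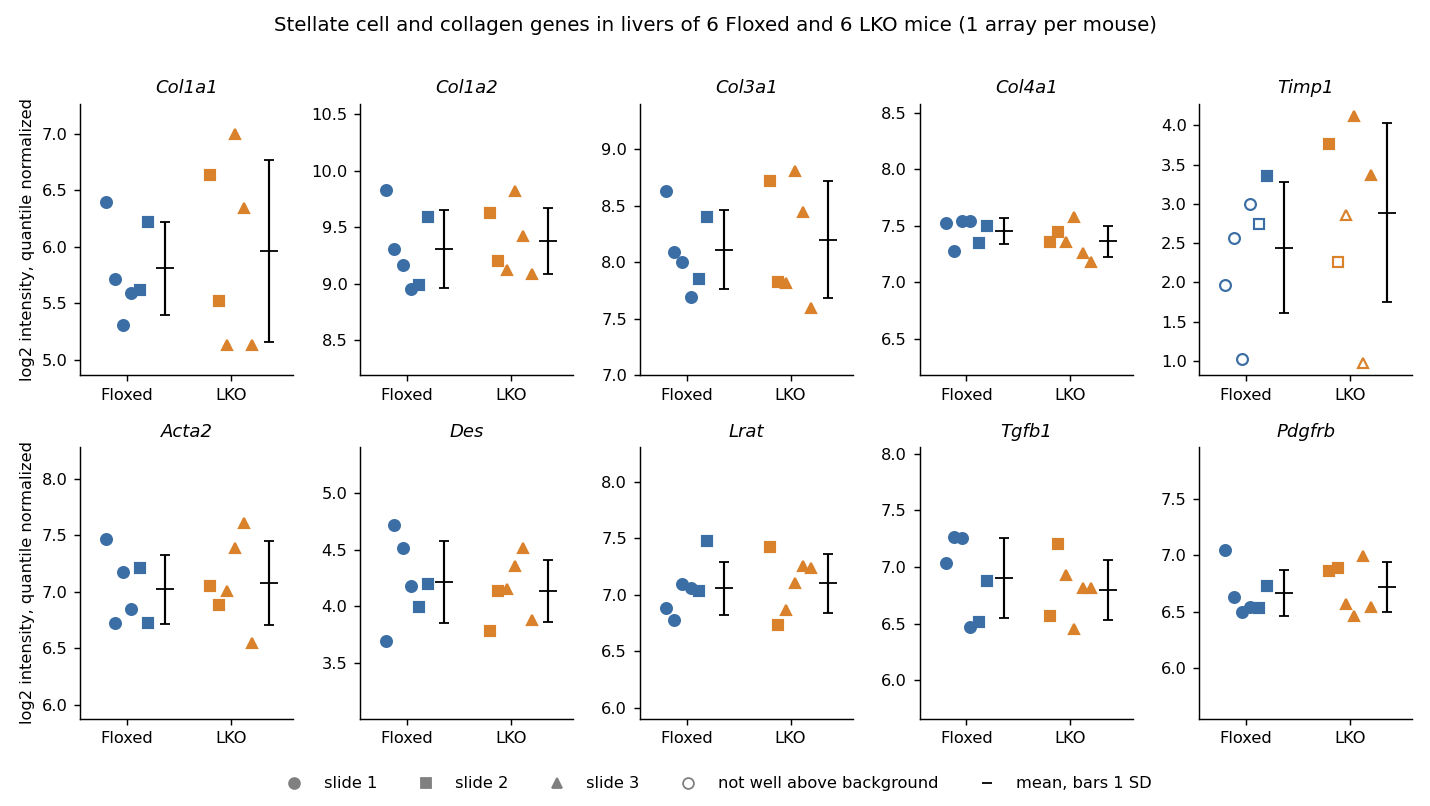
Log2 intensity (y axis, with its own range in each panel) of the 10 members in 6 Floxed and 6 LKO mice (x axis). Each point is 1 mouse, its shape gives the slide, an open point was not well above background, and the black bars are the mean and 1 SD. Floxed and LKO values overlap in every panel.

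The genes of the fibrillar collagens varied from mouse to mouse in both genotypes. Col1a1 (NM_007742) ranged from 5.31 to 6.40 in Floxed mice (median 5.67) and from 5.13 to 7.00 in LKO mice (median 5.93). LKO mice held both the highest values, LKO 4 and LKO 1, and the lowest, LKO 3 and LKO 6, with the Floxed mice between them. The mean was 5.81 ± 0.41 (SD, n = 6) in Floxed and 5.96 ± 0.81 (SD, n = 6) in LKO mice. They differed by 0.15 (SE 0.33). As a fold the 95% interval ran from 0.678 to 1.82. Within slide 2 the difference was 0.16.

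Col1a2 (NM_007743), whose product joins that of Col1a1 in the collagen I helix, ranged from 8.96 to 9.82 in Floxed mice (median 9.23) and from 9.09 to 9.82 in LKO mice (median 9.31). Both genotypes reached the same height, in Floxed 1 and LKO 4. The difference was 0.074 (SE 0.17), with a 95% interval of 0.814- to 1.36-fold, and 0.12 within slide 2. Col3a1 (NM_009930) ranged from 7.69 to 8.63 in Floxed mice (median 8.05) and from 7.60 to 8.80 in LKO mice (median 8.13). LKO 4 was again the highest array and LKO 6 the lowest. Its difference was 0.088 (SE 0.23), with a 95% interval of 0.752- to 1.50-fold, and 0.14 within slide 2. For all 3 of these collagens the small positive difference changed sign when LKO 4 was left out. It was then -0.058 for Col1a1, -0.013 for Col1a2 and -0.033 for Col3a1. Other arrays moved it upward. Without LKO 3 it was 0.32, 0.13 and 0.17 in that order, and without LKO 6 it was 0.32, 0.13 and 0.21. Without LKO 1, Col3a1 was at -0.016.

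Col4a1 (NM_009931), which is also made by endothelial cells, behaved differently from the fibrillar collagens in that its values lay close together. It ranged from 7.28 to 7.54 in Floxed mice (median 7.51) and from 7.18 to 7.58 in LKO mice (median 7.36). The difference of -0.091 (SE 0.084) had the narrowest interval of the members, from 0.828- to 1.06-fold, and was -0.018 within slide 2. Its negative sign stayed with any single array left out, between -0.13 and -0.055.

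**Figure D2:**
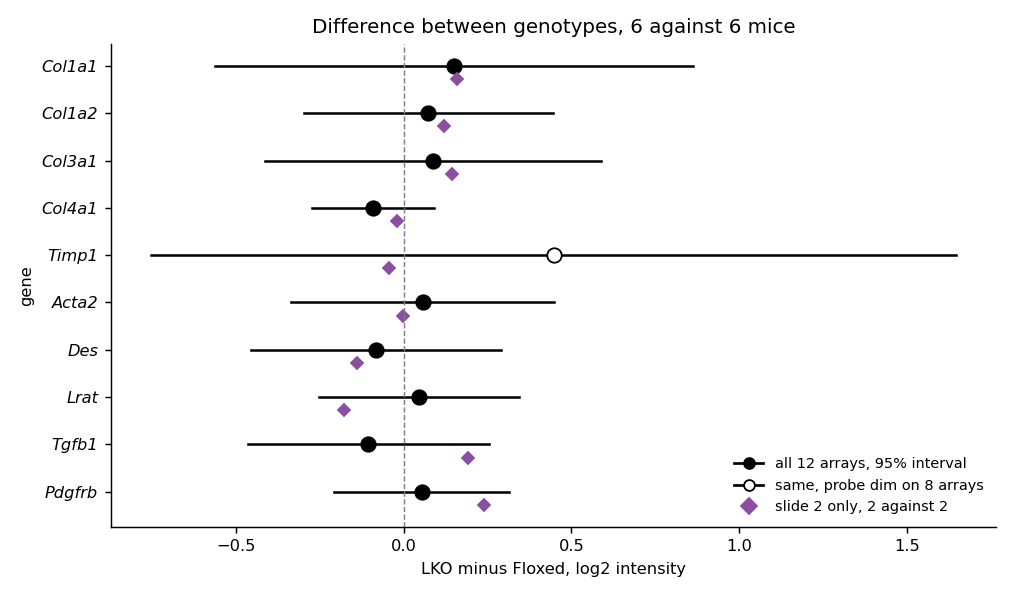
Difference between LKO and Floxed mice in log2 intensity (x axis) for each member (y axis), from limma over all 12 arrays with its 95% interval. The open point is Timp1, whose probe was dim on 8 arrays, diamonds are the difference within slide 2, and all 10 intervals include 0.

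Acta2 (NM_007392) ranged from 6.72 to 7.46 in Floxed mice (median 7.01) and from 6.55 to 7.61 in LKO mice (median 7.03). The extremes were both LKO arrays, LKO 6 and LKO 5. The difference was 0.057 (SE 0.18), with a 95% interval of 0.793- to 1.36-fold, and it was -0.00045 within slide 2. A mean difference of more than 1.36-fold in this marker lay outside the interval of this fit, which makes no allowance for slide. Its sign changed when any of Floxed 2, Floxed 6, LKO 4 or LKO 5 was left out, with values of -0.0038, -0.0033, -0.0042 and -0.049 in that order.

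Timp1 (NM_001044384) could not be tested with the others, since on 1 Floxed and 3 LKO arrays only did its probe exceed background clearly enough. Those arrays were Floxed 6 at 3.36 and LKO 1, LKO 4 and LKO 6 at 3.76, 4.12 and 3.37. On the remaining arrays the probe gave between 0.97 and 2.99, values that have no firm order. In a fit without the filter on dim probes the difference was 0.45 (SE 0.55), with a 95% interval of 0.594- to 3.13-fold. That fit called 8.58% of all genes, and the adjusted p of Timp1 in limma was 0.833. Within slide 2 the difference was -0.044.

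Of the markers of the resting stellate cell, Lrat and Des, neither was called between the genotypes. Lrat (NM_023624) ranged from 6.78 to 7.48 in Floxed mice (median 7.05) and from 6.73 to 7.43 in LKO mice (median 7.17). Floxed 6 and LKO 1, both on slide 2, were the highest, while LKO 2 on the same slide was the lowest. Its difference was 0.047 (SE 0.14), with a 95% interval of 0.841- to 1.27-fold, against -0.18 within slide 2. Without Floxed 2 it was -0.0079 and without LKO 1 -0.018.

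Des (NM_010043) was the dimmest tested member, with 1.12% of the tested genes having a lower mean. It ranged from 3.70 to 4.72 in Floxed mice (median 4.19) and from 3.78 to 4.51 in LKO mice (median 4.14). The lowest and highest arrays, Floxed 1 and Floxed 2, were both of the control genotype. The difference was -0.082 (SE 0.17), with a 95% interval of 0.730- to 1.22-fold, and -0.14 within slide 2. It was 0.018 without Floxed 2, and scaling by the 75th percentile in place of quantile normalization gave 0.073.

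Pdgfrb (NM_001146268) ranged from 6.50 to 7.05 in Floxed mice (median 6.59) and from 6.47 to 6.99 in LKO mice (median 6.72). The highest values were those of Floxed 1, LKO 1, LKO 2 and LKO 5. The difference of 0.054 (SE 0.12) had a 95% interval of 0.867- to 1.24-fold. It was 0.24 within slide 2, and without LKO 5 it was -0.00075.

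Tgfb1 (NM_011577) ranged from 6.47 to 7.26 in Floxed mice (median 6.96) and from 6.45 to 7.20 in LKO mice (median 6.82). The lowest values came from all 3 slides, with Floxed 4 on slide 1, Floxed 5 and LKO 1 on slide 2 and LKO 4 on slide 3. The difference was -0.10 (SE 0.17), with a 95% interval of 0.725- to 1.19-fold, and it was 0.19 within slide 2. Its sign over all arrays was therefore not that of the slide that held both genotypes.

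Over all members 6 of 10 kept their sign within slide 2, where 2 mice of each genotype were compared and no test was made on that slide alone. The others were Timp1, Acta2, Lrat and Tgfb1. The limma fit with slide as a fixed block gave the same differences and called none of the tested members. For all 10 members, slide and genotype cannot be told apart beyond that comparison. When LKO 1 and LKO 2 were left out, no member was called, and the differences of Des and Pdgfrb became 0.0070 and -0.023.

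Individual mice differed to an extent that varied with the gene. From the lowest to the highest of the 12 arrays, Col1a1 spanned 3.66-fold, Col3a1 2.31-fold, Acta2 2.08-fold, Des 2.03-fold and Col1a2 1.83-fold. Tgfb1 spanned 1.75-fold, Lrat 1.68-fold, Pdgfrb 1.50-fold and Col4a1 1.32-fold. Within genotypes the SD of Col1a1 was 0.64, above that of 97.3% of all tested genes and of 92.6% of the 500 tested genes nearest to it in mean intensity. For Col3a1 the SD was 0.44 and for Col1a2 0.32, above 92.6% and 85.6% of the 500 genes nearest to each. At the other end, the SD of Col4a1 was 0.13 and exceeded that of 6.4% of its 500 nearest genes. The matrix genes of the group thus held both the most and the least variable of the tested members. Col4a1 was averaged over 10 spots per array and the fibrillar collagens were read by 1 spot, a difference that these SDs include.

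For Acta2, Des, Tgfb1 and Col4a1 the array carried 10 spots of the probe, so that the error of reading a single array could be measured. The SE of an array mean over these spots was 0.032 for Acta2, 0.081 for Des, 0.023 for Tgfb1 and 0.030 for Col4a1. The SD between mice of a genotype was 10.5 times this error for Acta2 and 13.6 times for Tgfb1. It was 3.99 times for Des and 4.23 times for Col4a1. The spread between mice in these 4 genes was therefore larger than the reading error of the spots, which does not include errors of labeling or extraction. The other 6 members were read by 1 spot, for which no such error is at hand.

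Col1a1, Col1a2 and Col3a1 went up and down together. The 5 arrays with the highest values were the same for all 3 genes, namely Floxed 1, Floxed 6, LKO 1, LKO 4 and LKO 5, and they came from both genotypes and all 3 slides. LKO 3 and LKO 6 were among the 4 lowest for each. Over the 12 arrays Pearson's r was 0.94 between Col1a1 and Col3a1 (Spearman's rho 0.93), 0.88 between Col1a1 and Col1a2 (rho 0.80) and 0.94 between Col1a2 and Col3a1 (rho 0.90). Without LKO 1 and LKO 4, the arrays farthest from the median of Col1a1, r was 0.90 with Col3a1 and 0.81 with Col1a2. Within genotypes, r between Col1a1 and Col3a1 was 0.86 in Floxed and 0.98 in LKO mice. These correlations describe 12 livers whose genes share an RNA extract, a hybridization and a normalization.

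**Figure D3:**
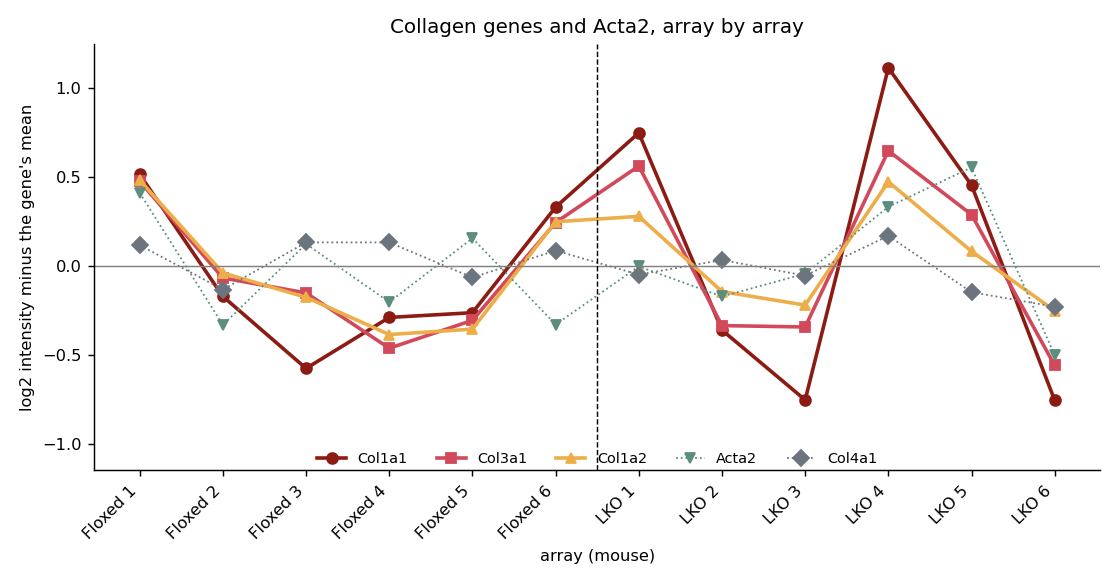
Log2 intensity minus the mean of the gene over the 12 arrays (y axis) on each array (x axis) for Col1a1, Col1a2 and Col3a1 (solid lines) and for Acta2 and Col4a1 (dotted lines). The lines join values to show the shared pattern, in which the 3 fibrillar collagens were high on Floxed 1, Floxed 6, LKO 1, LKO 4 and LKO 5.

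Among 12509 genes with a symbol, Col3a1 and Col1a2 had the highest r with Col1a1. The next were Tspan2 (0.87), Fbln7 (0.86) and Prss23 (0.85), which encode a tetraspanin, a matrix glycoprotein and a secreted serine protease. In that order, their r with Col1a1 was 0.66, 0.84 and 0.30 in Floxed and 0.92, 0.95 and 0.96 in LKO mice. None of them was called between the genotypes. The gene nearest to Col3a1 was Col1a1, followed by Col1a2. In the order of Col1a2, Col3a1 came at place 2 and Col1a1 at place 4.

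Acta2 was nearest to Myl9, a myosin light chain of smooth muscle and myofibroblasts (r = 0.86, rho 0.80), and to Serpinh1, the collagen chaperone of the endoplasmic reticulum (r = 0.83, rho 0.74). Slc10a5 (0.82), Tecpr2 (0.81) and Diaph1 (0.81), an actin-nucleating formin, followed. Without LKO 5 and LKO 6, the arrays farthest from the median of Acta2, r was 0.70 for Myl9 and 0.76 for Serpinh1. It was then 0.77 for Slc10a5, 0.77 for Tecpr2 and 0.58 for Diaph1. With the fibrillar collagens Acta2 had an r of 0.45 to 0.59. With Tagln, another actin-binding protein of the myofibroblast, r was 0.35.

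Lrat had other neighbors. These were Secisbp2l (0.89), Ctsl (0.88), a lysosomal protease, Mblac2 (0.87), Acsl4 (0.86), an acyl-CoA synthetase for arachidonate, and Snx10 (0.86). No gene of the collagen or contractile kind was among its 5 nearest.

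Of the 45 pairs that the 10 members form, the 3 among the fibrillar collagens had r of 0.88 to 0.94, while the other 42 lay between -0.60 and 0.59. The lowest was Timp1 with Tgfb1, which includes the arrays where the Timp1 probe was dim. Col4a1 had an r of 0.33 to 0.34 with the fibrillar collagens and of 0.35 with Col4a2, its partner chain. The starts of Col4a1 and Col4a2 are annotated 21 bases apart on opposite strands. Des was at -0.15 to -0.05 with the fibrillar collagens, Lrat at 0.27 to 0.39 and Pdgfrb at 0.39 to 0.48. For Pdgfrb r was 0.90 to 0.92 over the 6 Floxed mice and -0.016 to 0.15 over the 6 LKO mice. Other pairs were as far apart. Tgfb1 with the fibrillar collagens had r of 0.027 to 0.48 in Floxed and of -0.81 to -0.76 in LKO mice. Acta2 with Des had -0.66 in Floxed and 0.80 in LKO mice. Whether r differed between genotypes was not tested. Without LKO 1 and LKO 4, Pdgfrb had an r of 0.78 with Col1a1 and 0.75 with Col3a1. Tgfb1 had an r of -0.41 with Col1a1, but of -0.05 without LKO 1 and LKO 4.

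**Figure D4:**
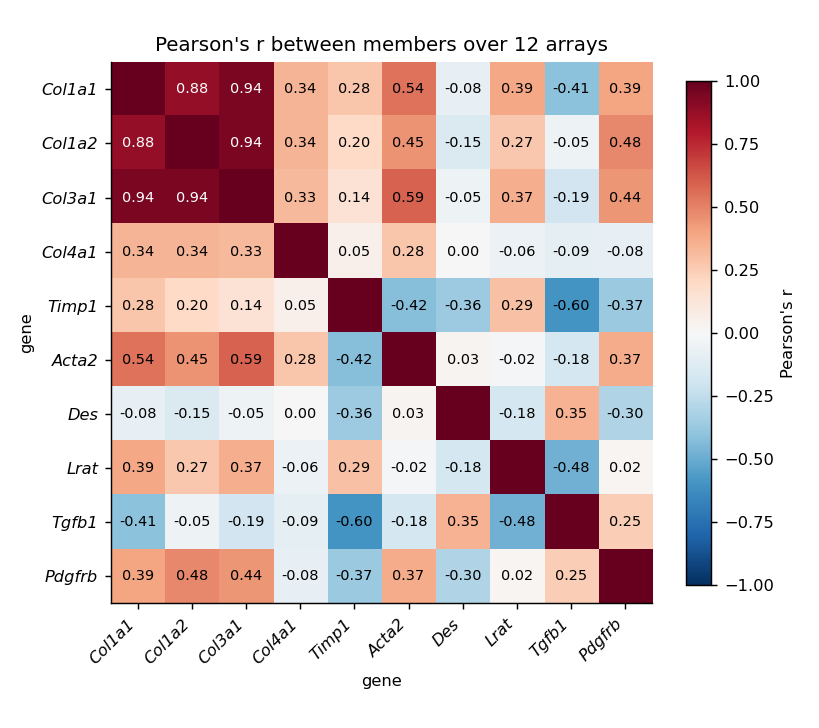
Pearson's r between the log2 intensities of each pair of members over the 12 arrays (both axes list the genes, the color scale gives r from -1 to 1). The block of Col1a1, Col1a2 and Col3a1 stands out with r of 0.88 to 0.94, and the other 42 pairs lie between -0.60 and 0.59.

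The mean deviation of the 3 fibrillar collagens from their own means ran from -0.52 on LKO 6 to 0.75 on LKO 4. Over the 12 arrays its r was 0.73 with the mean of 28 TGF-beta pathway genes, 0.67 with that of 13 other myofibroblast genes and 0.36 with that of 22 stellate cell genes. With markers of other cells r was -0.51 for Kupffer cells, -0.51 for the sinusoidal endothelium, -0.25 for hepatocytes, -0.16 for cholangiocytes and 0.18 for portal fibroblasts. Kupffer cell genes varied widely, from -0.63 on LKO 4 to 0.83 on Floxed 3. Without LKO 1 and LKO 4, r was 0.73 for the TGF-beta pathway, 0.57 for the myofibroblast genes, 0.75 for the stellate cell genes, -0.27 for Kupffer cells and -0.11 for the endothelium. The part of these cells in the collagen values was not tested.

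Other genes around the members were read from 12 lists. Without the members these held 220 genes on the array, of which 150 were tested. Of these 7 were called, 5 as higher and 2 as lower, or 4.67% against 8.35% of all tested genes, and their median difference was 0.0014. The counts of single lists that follow include the members in them. None of the 7 passed Benjamini-Hochberg adjustment in limma. Among 22 tested genes of the stellate cell, 8 were higher, 14 lower and none called, with a median of -0.056. Among 16 genes of myofibroblast activation, 12 were higher, 4 lower and none called, with a median of 0.065.

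Of 44 collagen genes listed, 42 were on the array and 18 could be tested, while 17 were well above background on no array. A higher mean in LKO mice was seen for 12 of the 18 and a lower for 6, with a median of 0.071, and 2 were called. Col5a3, a chain of the fibril-regulating collagen V, was at 9.73 ± 0.18 (SD, n = 6) in Floxed and 10.04 ± 0.23 in LKO mice. Its difference was 0.31 (SE 0.12, limma p 0.0203, adjusted p 0.469 by Benjamini-Hochberg), and 0.56 within slide 2. Over the 12 arrays Col5a3 had an r of -0.17 with Col1a1, -0.079 with Col1a2 and -0.19 with Col3a1. Col6a2, a chain of the microfibrillar collagen VI, was at 4.53 ± 0.44 in Floxed and 5.11 ± 0.58 in LKO mice (SD, n = 6). The difference was 0.58 (SE 0.27, limma p 0.0494, adjusted p 0.598 by Benjamini-Hochberg), and 0.30 within slide 2. Its partner Col6a1 differed by 0.023 and was not called.

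Collagen processing gave no called gene among 24 tested, with 11 higher and 13 lower. The list includes the prolyl hydroxylases, the lysyl oxidases and Serpinh1, whose difference was -0.0055. Of 15 laminins and other basement membrane partners, Lamb3, a laminin chain of epithelial basement membranes, was the called gene (0.36, SE 0.12, limma p 0.0099), with 0.33 within slide 2.

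Of 15 matrix proteases and inhibitors, 3 were called in differing directions. Mmp17, a membrane-anchored metalloproteinase, was higher in LKO mice by 0.54, while Adamts1, which cleaves proteoglycans, and Plaur, the urokinase receptor, were lower, with differences of -0.37 and -0.32. On slide 2 these were 0.038, -0.13 and 0.047. The TGF-beta pathway had no called gene among 28, with 12 higher and 16 lower and a median of -0.013. The same was true of the 5 tested PDGF ligands and receptors and of 11 genes of the smooth muscle contractile apparatus. Of 20 genes that handle retinoids, Crabp2, a retinoic acid binding protein, was called (0.40, limma p 0.0380), with 0.0046 within slide 2.

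**Figure D5:**
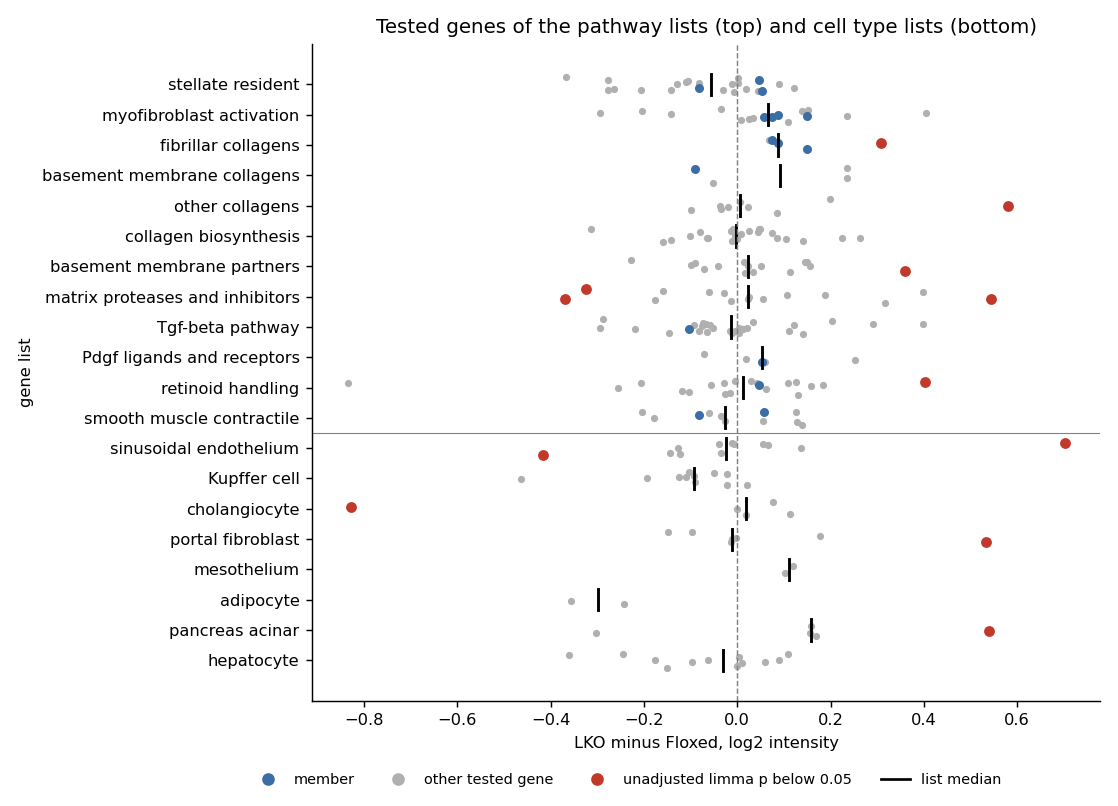
Difference between LKO and Floxed mice in log2 intensity (x axis) of the tested genes in each list (y axis), with 12 pathway lists above the line and 8 cell type lists below it. Blue points are members, red points are genes called at an unadjusted limma p below 0.05, black bars are list medians, and no member is among the called genes.

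Markers of other cells that could change the makeup of a liver sample were read in the same fit, in 8 lists. None of 11 Kupffer cell genes was called, with 1 higher and 10 lower and a median of -0.093. Within slide 2 the mean of these genes differed by 0.054. None of 12 hepatocyte genes was called, with 5 higher and 7 lower and a median of -0.031. Of 12 sinusoidal endothelial genes, Pecam1 was higher (0.70, limma p 0.0015) and Flt4 lower (-0.42, limma p 0.000579), with differences of 0.042 and -0.40 within slide 2. Gas6 was called among 7 portal fibroblast genes (0.53), Cftr among 5 cholangiocyte genes (-0.83) and Cel among 5 pancreas acinar genes (0.54). The mesothelial and adipocyte lists had 2 tested genes each and no call. Of 5 defining portal fibroblast markers, Gli1 was well above background on no array, and of 5 defining acinar markers Cpa1, Prss2 and Pnlip were not.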

How the data were processed

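Total RNA of 12 livers was measured on 12 arrays, 1 mouse each, and replicates are separate mice. Genotype and replicate number came from the sample titles and the slide from the deposited array data. The authors deposited Agilent Feature Extraction output per array, with a processed intensity per spot that is corrected for background but not yet normalized, and a table of quantile-normalized intensity per probe. The file headers name version 10.7.1.1 of that software and the submitters' processing notes name 9.5.1.1. The methods name a RiboPure kit and the labels TRIzol with a Promega system for extraction, and which was used is not known.

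From the deposited intensity values the following was computed. After 1377 control spots were left out, the log2 of the processed intensity of 43020 spots was quantile-normalized. Outlier spots (0.298%) were then dropped, spots of a probe averaged, and probes well above background on all 12 arrays, for at least 0.5 of their spots, were kept (20404). The filter of the study, on detection p-values, was not used here. Probes were named by matching RefSeq accessions to a gene table of GRCm38.p6 (94.3% of 28389), and the brightest probe stood for a gene. Each member had 1 probe. The authors' table lay within 0.1 of these log2 values for 100% of them. Genotypes were compared with limma 3.58.1 (lmFit and eBayes) in R 4.3.3 without covariates, and the call rule was an unadjusted p below 0.05, as in the study's array methods. The study also states an adjusted p and an absolute log2 difference of at least 1 as thresholds, and both were tried. Where p-values are adjusted, this was by Benjamini-Hochberg over all tested genes. The code was tested on simulated data.

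The members and lists were chosen with earlier results of these data known. Genes named beside the members are the called genes of each list, at most 3 with the largest difference, the 5 genes nearest in r to Col1a1, Acta2 and Lrat, and the markers and partner chains named with them. Alternatives covered scaling, background correction, the authors' table, the filter, outlier spots, probe choice, the methods' t-test, slide, replicate number, each array left out and stricter thresholds.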

Additional observations from a re-analysis of the deposited data

Results flagged for a closer look

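No member had an array far from the others of its genotype. For the lists, the mean deviation of the tested genes from their own means was examined in each genotype, which with the members made 60 groups of 6 arrays. In 4 of them the gap between the most distant array and its neighbor exceeded 0.625 of the range, where chance gives about 1 in 20, or 3 of 60. The TGF-beta pathway list was highest on Floxed 1, at 0.10 against -0.024 to -0.00023 on the other Floxed arrays, a gap of 0.808 of the range. Floxed 1 was also among the 5 highest arrays for Col1a1, Col1a2 and Col3a1. The sinusoidal endothelium list was highest on Floxed 5, at 0.13, with a gap of 0.746. The adipocyte list of 2 tested genes was lowest on Floxed 4, at -0.48, with a gap of 0.739. The hepatocyte list was lowest on Floxed 2, at -0.083, with a gap of 0.632.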

How the results depend on the processing

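None of the 9 tested members was called in any of the 27 tested alternatives, a count without Timp1 wherever dim probes were filtered out. Stricter thresholds could add no call where the main fit had none. Each member had 1 probe, so the alternatives of probe choice repeated its difference. The methods' t-test, the replicate block and the fit without the filter also left the differences of the tested members as they were, so their signs could not change. Of 239 tested member values, with those of Timp1 from fits without that filter, 219 kept their sign and their side of the threshold. The exceptions were 19 changes of sign and Timp1. The 10 values within slide 2 were not tested by themselves and equaled those with slide as a fixed block. Their 4 changes of sign thus repeat 4 of those 19. After normexp background correction, without the filter on dim probes, the difference of Timp1 was 0.13, with an unadjusted limma p of 0.0388, below the threshold. With slide as a fixed block, Timp1 was at -0.044, Acta2 at -0.00045, Lrat at -0.18 and Tgfb1 at 0.19. Scaling by the 75th percentile put Des at 0.073. Without LKO 1 and LKO 2, chosen after seeing the data like the filter on positive and significant signal, Des was at 0.0070 and Pdgfrb at -0.023. Leaving out 1 array at a time, the difference ran from -0.058 to 0.32 for Col1a1, -0.013 to 0.18 for Col1a2, -0.033 to 0.21 for Col3a1, -0.13 to -0.055 for Col4a1, 0.16 to 0.83 for Timp1, -0.049 to 0.16 for Acta2, -0.19 to 0.018 for Des, -0.018 to 0.13 for Lrat, -0.19 to -0.032 for Tgfb1 and -0.00075 to 0.13 for Pdgfrb. The cause of these changes was not tested beyond the arrays left out.

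The count of called genes was 1413. It was 317 with slide as a fixed block, 2173 without LKO 1 and LKO 2, 2791 of 32524 without the filter on dim probes, 88 with an absolute log2 difference of at least 1, and 0 at a Benjamini-Hochberg adjusted p below 0.05, against 1413 unadjusted in limma and 1236 unadjusted in the methods' t-test. Leaving out 1 array at a time, it was between 1103 and 1838. With the replicate number as a block it was 1428, and no member was called. The titles give same-numbered mice adjacent animal numbers, but the labels do not say what a shared number stands for. The deviations of same-numbered mice from their group means correlated at -0.235 to 0.317, above 0.1 in 3 of 6 pairs, and 1 LKO array was nearest to the Floxed array of its own number. Signal over background limits Timp1, and 6 members rest on 1 spot per array.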
